A study of Mus musculus with 4 samples.

Results

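Matrix proteases and their inhibitors were followed in 4 RNA libraries of mouse uterus, taken on day 4 of a pseudopregnancy. The members were all genes of the deposited tables named Mmp, Adamts or Timp followed by a number, which gave 46 of 23235 genes. They comprised 23 matrix metalloproteinases (MMPs), 19 secreted ADAMTS proteases (metalloproteinases with thrombospondin motifs) and the 4 tissue inhibitors of metalloproteinases (TIMPs). The libraries were luminal epithelium of a uterus labelled as a knockout of Msx1 and Msx2 (Msx1d/d, Msx2d/d), luminal epithelium of a control (Msx1f/f, Msx2f/f), stroma of the labelled knockout and stroma of the control. The control carries the floxed alleles of both genes. The deletion is described as specific to the uterus, and the Cre driver, the deleted exons and the ages of the mice are not given in the sources used here. Females had been mated with vasectomized males, so no embryos were present. Each library is a single capture by laser microdissection, and the design names 1 mouse of each genotype, so the values have no replicates, and genotype and animal cannot be told apart.

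MMPs cut collagens, gelatin, proteoglycans and glycoproteins of the extracellular matrix, and most are made as inactive precursors that another protease must cut. ADAMTS proteases have narrower targets: some cut the proteoglycans aggrecan and versican, others trim procollagen or bind fibrillin microfibrils. TIMPs block the zinc-bearing active site of these enzymes, and Timp3 is the member of that family known for also inhibiting ADAMTS aggrecanases. In the mouse uterus the matrix is remodelled when the stroma decidualizes around an embryo, and the balance of these proteases and inhibitors is a long-standing subject there.

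Levels are RPKM, reads scaled to transcript length and to the mapped total, as the authors computed them, so that genes can be compared per length. Depth, estimated from the files, came to 88.2 M reads for luminal epithelium of the labelled knockout and 6.14 M for its control, and to 61.4 M for stroma of the labelled knockout and 42.1 M for its control. A count of 3 reads on a member stood for 0.00321 to 0.0498 RPKM in luminal epithelium of the labelled knockout, but for 0.0461 to 0.715 RPKM in its control. Low members of that control therefore rest on a handful of reads, and a value of 0 is not read as absence: the files list the ribosomal protein gene Rpl26, picked with its values known, at 0 in both controls. Msx1 was at 13.6 RPKM in luminal epithelium of the labelled knockout and 23.2 RPKM in the control, while Msx2, against its label, was at 2.06 RPKM in luminal epithelium of the labelled knockout and 1.31 RPKM in the control. Both genes were under 0.2 RPKM in stroma. The term labelled knockout is used because of this.

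Compartment markers lay where the labels place them. The 10 general epithelial markers summed to 515 RPKM in luminal epithelium of the labelled knockout and 449 RPKM in that of the control, against 0.539 and 1.82 RPKM in stroma of the labelled knockout and of the control. The 12 stromal markers summed to 9.42 RPKM in luminal epithelium of the labelled knockout and 16.9 RPKM in its control, and to 585 and 412 RPKM in stroma of the labelled knockout and control. Leukocyte markers, 11 in the tables, of which the neutrophil genes S100a8 and S100a9 were at 0 in both luminal epithelium libraries and S100a9 also in stroma of the labelled knockout, summed to 11.7 RPKM in luminal epithelium of the labelled knockout against 21.4 RPKM in its control, and to 56.3 RPKM in stroma of the labelled knockout against 126 RPKM in its control. Only 1 of the 11 reached 1 RPKM in luminal epithelium of the labelled knockout.

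In sum, the matrix proteases and TIMPs were lower in luminal epithelium than in stroma. Their summed level was 27.5 RPKM in luminal epithelium of the labelled knockout and 20.8 RPKM in that of the control, and 94.5 and 75 RPKM in stroma of the labelled knockout and control. The 5 highest in stroma of the labelled knockout were Mmp2, Mmp14, Mmp23, Timp3 and Timp2, and in its control Mmp2, Mmp14, Timp2, Timp3 and Adamts1, while luminal epithelium was led by Mmp14, Timp3 and, in the labelled knockout, Adamts16. Of the 46 genes, 21 reached 1 RPKM in at least 1 library: 7 MMPs, 11 ADAMTS proteases and 3 TIMPs. The other 25 stayed lower in all 4, and 14 of them stayed under 0.1 RPKM. At least 1 RPKM was reached by 7 members in luminal epithelium of the labelled knockout and 5 in its control, and by 15 members in stroma of the labelled knockout and 16 in its control. The TIMPs made up 20.2% of the summed level in luminal epithelium of the labelled knockout, 23.0% in its control, 17.6% in stroma of the labelled knockout and 20% in its control. The summed proteases stood at 3.96 times the summed TIMPs in luminal epithelium of the labelled knockout and 3.35 times in its control, and at 4.68 times in stroma of the labelled knockout and 4.0 times in its control.

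**Figure D1:**
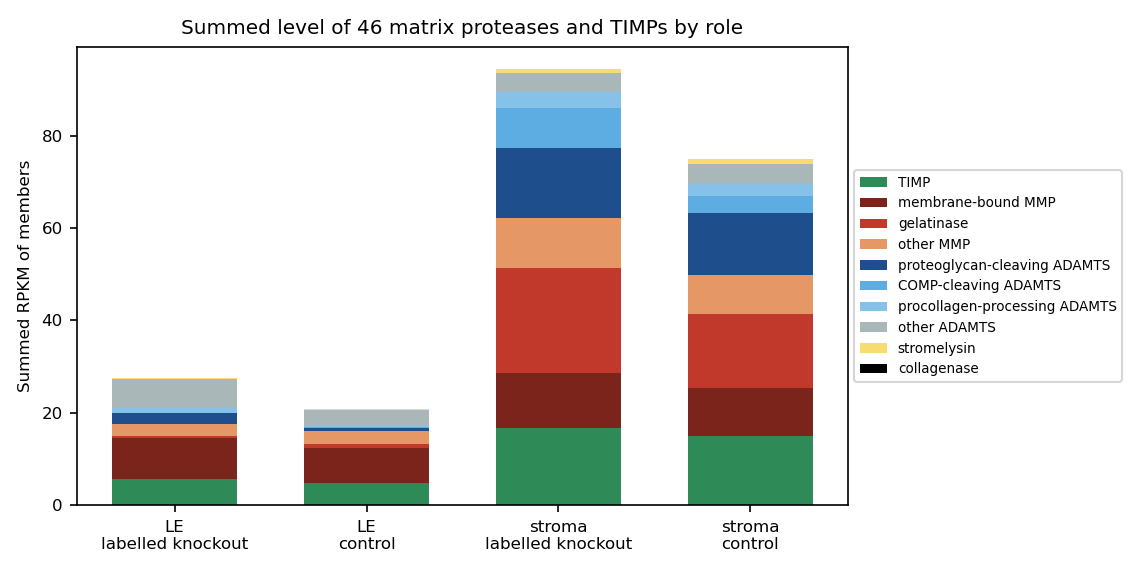
Summed RPKM of the 46 members in each library (bars, 1 library each), divided by role. LE is luminal epithelium. The stroma bars reach 94.5 and 75 RPKM and the luminal epithelium bars 27.5 and 20.8 RPKM, labelled knockout before control. The role collagenase holds Mmp1a, Mmp1b, Mmp8 and Mmp13 and is too low to be seen, and Mmp14 is counted with the membrane-bound MMPs.

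Among the inhibitors, Timp3, which binds to the matrix after secretion, was the only one above 1 RPKM in all 4 libraries. It was at 3.97 RPKM in luminal epithelium of the labelled knockout, 4.26 RPKM in its control, 8.18 RPKM in stroma of the labelled knockout and 6.70 RPKM in its control. Its ratio of labelled knockout to control was 0.933 in luminal epithelium, with 95% counting limits of 0.775 and 1.14, and 1.22 in stroma, with limits of 1.14 and 1.31. Counting limits cover the sampling of reads alone. Timp2, which both inhibits Mmp2 and helps Mmp14 to activate it, was a stromal gene. It was at 0.0327 RPKM in luminal epithelium of the labelled knockout and 0.156 RPKM in its control, against 7.5 and 6.86 RPKM in stroma of the labelled knockout and control, where its ratio was 1.09 with limits of 1.01 and 1.18.

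Timp1 and Timp4 were low. Timp1 was at 1.04 RPKM in luminal epithelium of the labelled knockout and 0.235 RPKM in its control, where that is about 1 read, and at 0.948 and 1.36 RPKM in stroma of the labelled knockout and control. Its ratios of 4.40 in luminal epithelium (limits 0.747 and 173) and 0.695 in stroma (limits 0.441 and 1.12) both reach equal levels. Timp4 was at 0.511 RPKM in luminal epithelium of the labelled knockout and 0.134 RPKM in its control, and in stroma it was listed at 0 in the labelled knockout and at 0.0593 RPKM in the control. Timp1, Timp3 and Timp4 share their deposited loci with the synapsin genes Syn1, Syn3 and Syn2, inside which they lie. The Timp1 locus also holds the kinase gene Araf, at 8.34 RPKM in luminal epithelium of the labelled knockout, 8.03 RPKM in its control, 3.7 RPKM in stroma of the labelled knockout and 3.53 RPKM in its control, well above Timp1, and its part in the Timp1 values was not tested. Syn2 was at 6.23 RPKM in luminal epithelium of the labelled knockout and 1.27 RPKM in its control, and its part in the Timp4 value was not tested. Syn1 and Syn3 reached at most 0.108 and 0.419 RPKM.

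Mmp14 (chromosome 14, 55050441 to 55060095, mm9), the membrane-bound collagenase that activates Mmp2 at the cell surface, was the most abundant member of luminal epithelium and the second of stroma. It was at 7.71 RPKM in luminal epithelium of the labelled knockout, 5.38 RPKM in its control, 9.97 RPKM in stroma of the labelled knockout and 8.72 RPKM in its control. Both ratios of labelled knockout to control were above 1 and below 2, at 1.43 with limits of 1.14 and 1.82 in luminal epithelium and 1.14 with limits of 1.05 and 1.24 in stroma. Mmp15, its close relative at the membrane, was at 1.07 RPKM in luminal epithelium of the labelled knockout and 2.10 RPKM in its control, 0.511 times as much (limits 0.391 and 0.672), and at 0.839 and 0.698 RPKM in stroma of the labelled knockout and control. Mmp16 and Mmp17 were stromal and low, with Mmp16 at 0.607 RPKM in stroma of the labelled knockout and 0.625 RPKM in its control, and Mmp17 at 0.476 and 0.232 RPKM. Mmp24 and Mmp25, also at the membrane, reached at most 0.0960 and 0.103 RPKM.

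Mmp2 (chromosome 8, 95351227 to 95377319, mm9), gelatinase A, which cuts denatured collagen and basement membrane collagen, had the highest level of any member in stroma. It was at 22.7 RPKM in stroma of the labelled knockout and 15.8 RPKM in its control, 1.43 times its level there, with limits of 1.35 and 1.51. In luminal epithelium it was at 0.427 RPKM in the labelled knockout and 0.736 RPKM in the control, 0.580 times as much, where limits of 0.324 and 1.12 reach equal levels. The luminal epithelium level was thus 1.89% of the stroma level in the labelled knockout and 4.65% in the control. The summed stromal markers stood at 1.61% in the labelled knockout and 4.09% in the control. Single markers ranged from 0.146% to 36.0% in the labelled knockout and from 1.81% to 31.9% in the control. The part of captured stroma in the luminal epithelium level of Mmp2 was not tested. Mmp9, gelatinase B, an enzyme of leukocytes, was listed at 0 in both luminal epithelium libraries. In stroma Mmp9 was at 0.0114 RPKM in the labelled knockout and 0.168 RPKM in the control, about 2 and 21 reads, 0.0681 times as much (limits 0.00742 and 0.267). Summed leukocyte markers were lower in the same library, as given above, and their part in the Mmp9 value was not tested. Fewer cells of a type and less RNA per cell cannot be told apart in such captures.

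Of the remaining MMPs, Mmp23, a small membrane-anchored protease, was stromal, at 8.36 RPKM in stroma of the labelled knockout and 5.88 RPKM in its control, 1.42 times as much (limits 1.24 and 1.64). In luminal epithelium Mmp23 was at 0.514 RPKM in the labelled knockout and 0.537 RPKM in the control. Mmp19 was at 2.15 RPKM in stroma of the labelled knockout and 2.14 RPKM in its control, which differed by less than counting error, and at 0.0103 and 0.0496 RPKM in luminal epithelium of the labelled knockout and control. Its locus holds Tmem198b too, at 2.22 RPKM in stroma of the labelled knockout and 2.74 RPKM in its control, and reads of the pair may not be told apart. Mmp11, stromelysin-3, was at 0.819 RPKM in stroma of the labelled knockout and 1.07 RPKM in its control, with a ratio of 0.768 and limits of 0.574 and 1.02, and at 0.106 and 0.233 RPKM in luminal epithelium of the labelled knockout and control. Mmp21 reached at most 0.0852 RPKM in any library. Mmp28, epilysin, a protease of epithelia, ran the other way between compartments. It was at 1.38 RPKM in luminal epithelium of the labelled knockout and 2.01 RPKM in its control, 0.685 times as much (limits 0.478 and 1.01), against 0.206 and 0.247 RPKM in stroma of the labelled knockout and control.

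**Figure D2:**
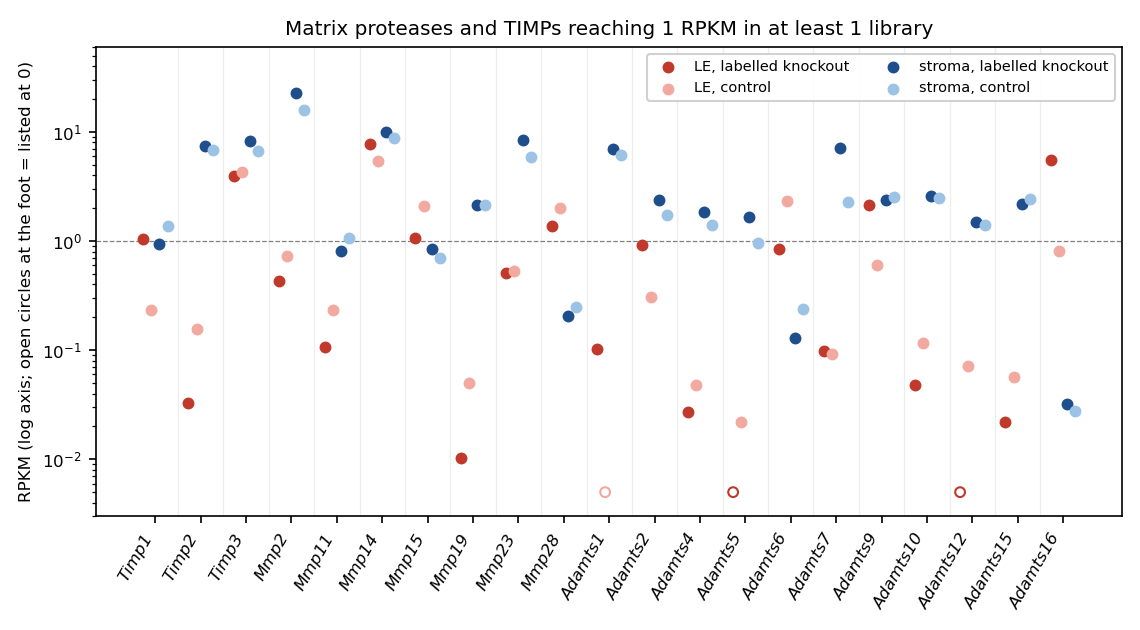
RPKM (log axis) of the 21 members that reached 1 RPKM in at least 1 library, 1 point for each of the 4 libraries, with open circles at the foot for values listed at 0. LE is luminal epithelium, and the dashed line marks 1 RPKM. Mmp2, Timp2, Mmp23 and Adamts1 lie high in stroma and low in luminal epithelium, Mmp14 and Timp3 lie above 3 RPKM in all 4 libraries, and Adamts16, Mmp28 and Adamts6 lie higher in luminal epithelium.

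The MMP genes clustered on chromosome 9 were listed at 0 or at low levels. The 10 genes Mmp13, Mmp12, Mmp1b, Mmp3, Mmp1a, Mmp10, Mmp8, Mmp27, Mmp20 and Mmp7 lie within 427 kb of each other, between 7272514 and 7699416 in build mm9. They include the collagenases Mmp1a, Mmp1b, Mmp8 and Mmp13, the stromelysins Mmp3 and Mmp10, macrophage elastase (Mmp12) and matrilysin (Mmp7). Of these, 4 were listed at 0 in all libraries (Mmp1a, Mmp1b, Mmp10 and Mmp20), and the highest value of any was that of Mmp7. Mmp7, known as a protease of uterine epithelium, was at 0.740 RPKM in luminal epithelium of the labelled knockout and 0.219 RPKM in its control, about 57 reads and 1 read, and was listed at 0 in both stroma libraries. Its ratio of 3.38 had limits of 0.684 and 159. Mmp13 was listed at 0 except in stroma of the labelled knockout, where it was at 0.0211 RPKM, about 3 reads. Of the others Mmp3, Mmp8, Mmp12 and Mmp27 reached at most 0.0277, 0.0232, 0.0212 and 0.0920 RPKM. In luminal epithelium of the control a value of 0 allows levels of up to 0.198 RPKM for Mmp13 and 0.321 RPKM for Mmp10 at 3 reads.

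Motifs in the promoters of these genes were compared with those of the other members. RefSeq windows of 300 bases, 250 before and 50 after each annotated start, were at hand for 32 of the 46 members, 35 windows in all, on build GRCm38.p6. The search covered 4 motifs on both strands: AP-1 (TGANTCA, its own reverse complement), a TATA box (TATAAA), a progesterone receptor site (GNACA and TGTNC with 3 bases between) and the core bound by Msx-type homeodomains (TAATTG). An AP-1 match lay in 8 of 35 windows, 22.9%, against 7.81% of all 32851 windows in the table. All 8 belonged to the chromosome 9 genes, of which Mmp8 and Mmp27 had no AP-1 match, nor had a second window of Mmp7 and of Mmp12. Each of the 8 windows held a TATA match as well, a pairing found in 1.54% of all windows. Human collagenase and stromelysin promoters are known for an AP-1 site shortly before the TATA box. The 8 windows are shown from 100 bases before the annotated start to 20 after it, because they hold both motifs. Capitals mark motif matches, which are TGANTCA and TATAAA except for the CAATTA directly before the AP-1 match of Mmp3, the reverse of TAATTG.
Mmp13 (chr9:7272414-7272533, plus strand): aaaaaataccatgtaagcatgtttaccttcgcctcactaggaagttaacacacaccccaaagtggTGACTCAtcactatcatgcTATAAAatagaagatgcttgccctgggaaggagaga
Mmp12 (chr9:7347274-7347393, plus strand): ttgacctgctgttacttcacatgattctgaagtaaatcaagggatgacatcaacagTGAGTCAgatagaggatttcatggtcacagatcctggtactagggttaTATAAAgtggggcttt
Mmp1b (chr9:7388007-7388126, minus strand): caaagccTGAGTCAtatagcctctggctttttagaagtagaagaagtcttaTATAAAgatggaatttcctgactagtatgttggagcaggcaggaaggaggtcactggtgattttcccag
Mmp3 (chr9:7445722-7445841, plus strand): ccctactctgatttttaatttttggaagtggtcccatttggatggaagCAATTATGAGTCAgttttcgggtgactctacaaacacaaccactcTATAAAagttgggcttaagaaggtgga
Mmp1a (chr9:7464041-7464160, plus strand): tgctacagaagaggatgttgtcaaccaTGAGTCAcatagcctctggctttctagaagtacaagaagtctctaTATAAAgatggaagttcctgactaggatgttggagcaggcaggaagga
Mmp10 (chr9:7502242-7502361, plus strand): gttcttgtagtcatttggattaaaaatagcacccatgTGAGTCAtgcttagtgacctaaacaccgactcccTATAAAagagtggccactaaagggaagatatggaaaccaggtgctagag
Mmp20 (chr9:7628131-7628250, plus strand): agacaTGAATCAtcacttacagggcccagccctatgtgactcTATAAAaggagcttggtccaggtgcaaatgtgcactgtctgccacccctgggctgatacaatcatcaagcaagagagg
Mmp7 (chr9:7691990-7692109, plus strand): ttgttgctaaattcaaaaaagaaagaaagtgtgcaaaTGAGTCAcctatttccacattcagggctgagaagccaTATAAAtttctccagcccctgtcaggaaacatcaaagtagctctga

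The AP-1 match began between 35 bases (Mmp13) and 95 bases (Mmp20) before the start, and the TATA match followed 19 to 48 bases after it, for Mmp12 past the annotated start. The genes are neighbours of 1 family, so these windows are not independent of each other. Windows at hand for expressed members were searched in the same way. None of the 13 windows of 12 members that reached 1 RPKM held an AP-1 match, and only that of Adamts1 held TATAAA. Of all windows 7.81% held AP-1 and 13.6% held TATAAA. Counts this low among 13 windows are near those shares, so no trait of expressed members is read from them. Other members that reached 1 RPKM, among them Mmp2, Adamts16, Adamts7 and Adamts6, had no window and are not covered. Over all windows the median G+C content was 52.7%. In the 13 windows it ran from 55% to 77.3% with a median of 64.7%. In the 12 windows of the chromosome 9 genes it ran from 37.7% to 52.0% with a median of 41.7%. The 10 windows of members that stayed below 1 RPKM elsewhere in the genome had a median of 64.7% too, and no AP-1 match, so a window without AP-1 went with both high and low levels. The progesterone receptor motif was in none of the 35 windows and in 0.475% of all, too rare for its lack here to say anything of the members. TAATTG was in windows of Mmp3, Mmp12 and Mmp14, 8.57% against 8.0%. A match is a run of letters and not a shown site of binding. Capitals below mark TAATTG for Mmp14 and TATAAA for Adamts1. For comparison, the same stretch is given for the most abundant protease and inhibitors with a window. It is also given for Mmp28, which was higher in luminal epithelium than in stroma, and for Adamts1, the leading proteoglycan-cleaving member with a window.
Mmp14 (chr14:54431498-54431617, plus strand): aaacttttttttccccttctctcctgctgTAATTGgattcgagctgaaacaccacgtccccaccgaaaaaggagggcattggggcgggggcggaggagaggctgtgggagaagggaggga
Timp3 (chr10:86300312-86300431, plus strand): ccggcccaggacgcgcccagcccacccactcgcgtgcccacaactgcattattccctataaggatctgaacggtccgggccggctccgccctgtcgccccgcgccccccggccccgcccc
Timp2 (chr11:118355392-118355511, minus strand): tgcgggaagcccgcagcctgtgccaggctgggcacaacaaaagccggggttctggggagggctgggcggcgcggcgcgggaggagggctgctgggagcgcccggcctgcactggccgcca
Mmp28 (chr11:83463021-83463140, minus strand): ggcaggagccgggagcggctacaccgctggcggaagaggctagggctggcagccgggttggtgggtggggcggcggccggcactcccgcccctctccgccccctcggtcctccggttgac
Adamts1 (chr16:85803094-85803213, minus strand): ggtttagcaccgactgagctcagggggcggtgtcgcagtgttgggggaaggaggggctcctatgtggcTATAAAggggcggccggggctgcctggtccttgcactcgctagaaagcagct

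**Figure D3:**
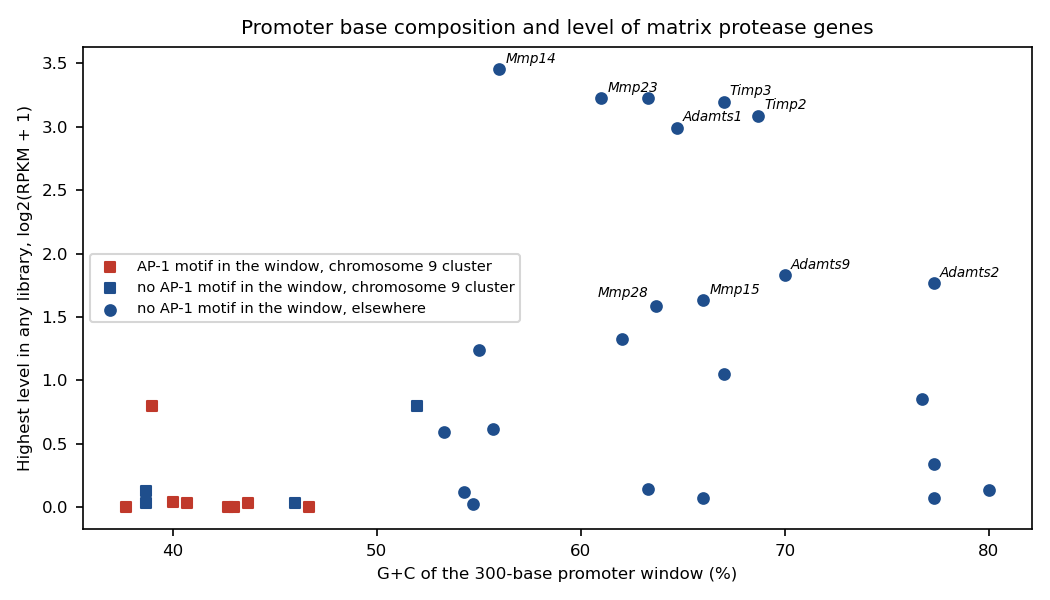
Highest level of each member in any library, as log2(RPKM + 1), against the G+C content of its 300-base promoter window, 1 point for each of 35 windows (Mmp7, Mmp12 and Mmp23 have more than one). Squares are the chromosome 9 MMP genes, and red marks an AP-1 match. All red points lie between 37.7% and 46.7% G+C and at 0.740 RPKM or less.

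Among ADAMTS proteases that cut proteoglycans, Adamts1 led in stroma. In mice it cuts versican during ovulation and is induced there by progesterone. It was at 6.96 RPKM in stroma of the labelled knockout and 6.12 RPKM in its control, 1.14 times as much (limits 1.06 and 1.22), and at 0.102 RPKM and 0 in luminal epithelium of the labelled knockout and control. Adamts4 and Adamts5, the aggrecanases, were stromal too. Adamts4 was at 1.86 RPKM in stroma of the labelled knockout and 1.40 RPKM in its control, and Adamts5 at 1.66 and 0.967 RPKM, 1.72 times as much (limits 1.54 and 1.93). Adamts15 was at 2.17 RPKM in stroma of the labelled knockout and 2.42 RPKM in its control, 0.895 times as much (limits 0.804 and 1.0). In luminal epithelium all of these were close to 0: Adamts4 was at 0.0274 RPKM in the labelled knockout and 0.0476 RPKM in the control, Adamts5 at 0 and 0.0219 RPKM, and Adamts15 at 0.0222 and 0.0571 RPKM. Adamts8 was at 0.158 RPKM in stroma of the labelled knockout and 0.0410 RPKM in its control, about 33 and 6 reads, and Adamts20 stayed under 0.05 RPKM.

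Adamts9 (chromosome 6, 92722693 to 92851435, mm9), a versican-cutting protease, was the member of this group found in both compartments. It was at 2.14 RPKM in luminal epithelium of the labelled knockout and 0.605 RPKM in its control, and at 2.38 and 2.55 RPKM in stroma of the labelled knockout and control. The luminal epithelium ratio was 3.54 with limits of 2.29 and 5.58, on about 22 reads in the control, whereas the stroma ratio was 0.932 with limits of 0.839 and 1.03. On the log2(RPKM + 1) scale the luminal epithelium difference was 0.97, just short of the 2-fold mark used for counting below. Whether the genotype difference itself differs between compartments was not tested.

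Adamts2, which removes the N-terminal propeptide of fibrillar procollagens, was at 2.40 RPKM in stroma of the labelled knockout and 1.73 RPKM in its control, 1.38 times as much (limits 1.24 and 1.54). In luminal epithelium it was at 0.924 RPKM in the labelled knockout and 0.308 RPKM in the control, 3.0 times as much (limits 1.79 and 5.83) on about 13 reads in the control. The other ADAMTS proteases that trim procollagen were lower: Adamts14 was at 0.804 RPKM in stroma of the labelled knockout and 0.636 RPKM in its control, and Adamts3 at 0.208 and 0.265 RPKM.

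Adamts7 showed the largest genotype difference in stroma among kept members. It cuts cartilage oligomeric matrix protein, as does its relative Adamts12. Adamts7 (chromosome 9, 90057816 to 90094940, mm9) was at 7.19 RPKM in stroma of the labelled knockout and 2.26 RPKM in its control, 3.17 times as much (limits 2.87 and 3.51). In luminal epithelium it was at 0.0986 RPKM in the labelled knockout and 0.0917 RPKM in the control. Adamts12 was at 1.51 RPKM in stroma of the labelled knockout and 1.41 RPKM in its control, 1.07 times as much (limits 0.953 and 1.20), so the pair differed unequally. Adamts12 was listed at 0 in luminal epithelium of the labelled knockout and at 0.0718 RPKM in its control. The authors' deposited table gave Adamts7 in stroma a p-value of 0.112 and a q-value of 0.554.

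Adamts16 showed the largest genotype difference in luminal epithelium among kept members. It encodes a secreted protease linked to blood pressure in rats, and lies on chromosome 13 (70866686 to 70980688, mm9). It was at 5.53 RPKM in luminal epithelium of the labelled knockout and 0.810 RPKM in its control, 6.83 times as much (limits 4.54 and 10.6) on about 2334 and 24 reads. In stroma it was at 0.0319 RPKM in the labelled knockout and 0.0278 RPKM in the control. Adamts16 was thus an epithelial gene in both genotypes, 173-fold higher in luminal epithelium than in stroma of the labelled knockout (limits 94.9 and 395) and 29.2-fold higher in the controls (limits 10.9 and 82.0). The authors' deposited table gave it a p-value of 0.00971 and a q-value of 0.119.

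Adamts6, a relative of Adamts10 on the same chromosome as Adamts16 (chromosome 13, 105077953 to 105284843, mm9), was also mainly epithelial, but lower in the labelled knockout. It was at 0.843 RPKM in luminal epithelium of the labelled knockout and 2.35 RPKM in its control, 0.358 times as much (limits 0.274 and 0.470), and at 0.130 and 0.238 RPKM in stroma of the labelled knockout and control. Adamts10, which binds fibrillin microfibrils, was stromal, at 2.58 RPKM in stroma of the labelled knockout and 2.46 RPKM in its control, with a ratio of 1.05 and limits of 0.923 and 1.19, and at 0.0475 and 0.116 RPKM in luminal epithelium of the labelled knockout and control. Adamts17 and Adamts19 were stromal and under 1 RPKM, with Adamts17 at 0.536 RPKM in stroma of the labelled knockout and 0.430 RPKM in its control and Adamts19 at 0.989 and 0.975 RPKM. Adamts13, which cuts von Willebrand factor, and Adamts18 reached at most 0.015 and 0.0491 RPKM.

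The first comparison set luminal epithelium of the labelled knockout against its control. Adamts16 and Adamts9 were higher there, Adamts6 and Mmp15 lower, and Timp3 nearly level. A member was kept for counting when its mean over both libraries was at least 1 RPKM, and called at a 2-fold difference of RPKM + 1, since with 1 library a group no test was possible. Of the 46 members 7 were kept, and a member that passed only through the library where it is high had to differ. Adamts16 was called higher, 1 of 7 or 14.3%, against 5.03% of 7736 kept genes, and none was called lower, against 1.99%. The log2 differences of the 7 ran from -0.86 to 1.85, with a median of -0.08, against 0.10 for all kept genes. Of all genes called, 71.6% were higher, and 57.2% once levels were scaled to the sum without the 50 most abundant genes. By counting limits 3 of the 7 were above equal levels (Adamts16, Adamts9 and Mmp14), 2 were below (Adamts6 and Mmp15), and Mmp28 and Timp3 reached them. The share of all kept genes with such limits was not counted. With a ratio of at least 2 and such limits, 2 members were higher and 1 lower, against 6.98% and 3.62% of the 7522 genes with a length. The depths differed by 14.4 times, and stromal marker sums were 9.42 RPKM in the labelled knockout and 16.9 RPKM in the control. The 4 gland markers, of which Spink3 was at 0 in both, summed to 5.15 RPKM in the labelled knockout and 1.06 RPKM in the control. Only 1 of the 4 reached 1 RPKM in the labelled knockout. The gland marker Foxa2 went the other way, at 0.0312 RPKM in the labelled knockout and 0.0881 RPKM in the control. The 6 smooth muscle markers summed to 0.572 and 4.95 RPKM. The part of depth and of these cell types in the differences was not tested.

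The second comparison set stroma of the labelled knockout against its control. Among the 16 of 46 members that were kept, Adamts7, Adamts5, Mmp2, Mmp23 and Adamts2 had the highest ratios. Of members too low to be kept, Adamts8 stood at 3.85 times its control level (limits 1.56 and 11) and Mmp17 at 2.05 times (limits 1.52 and 2.78). Adamts14 stood at 1.26 times (limits 1.02 and 1.58). Others too low to be kept were lower: Mmp9 at 0.0681 times (limits 0.00742 and 0.267), Adamts6 at 0.548 times (limits 0.348 and 0.869) and Adamts18 at 0.276 times (limits 0.0849 and 0.973). Timp4 was listed at 0 against 0.0593 RPKM in the control, with an upper limit of 0.225 for the ratio. Adamts7 alone was called higher, 6.25% against 1.45% of 7723 kept genes, and none was called lower, against 1.59%. Of the 16 log2 differences 13 were above 0, with a range from -0.28 to 1.33 and a median of 0.17, against 0.07 for all kept genes. Of all 7723 kept genes 4957 were above 0 as well, and both other scalings put Adamts10 and Mmp19 at 0 or below. Counting limits lay above equal levels for 10 of the 16, and for the other 6 they reached them. The share of all kept genes with such limits was not counted, so no trait of the members is read from this. With a ratio of at least 2 as well, Adamts7 alone was higher, against 1.02% of 7426 genes with a length. No kept member was lower, against 1.36%. The stromal markers summed to 585 RPKM in the labelled knockout and 412 RPKM in the control in this pair, which is 1 library of each genotype. Single stromal genes differed unequally. Col1a1 was at 83.7 RPKM in stroma of the labelled knockout and 32.9 RPKM in its control, and Col3a1 at 202 and 132 RPKM. Dcn was nearly level, at 43.6 and 42.7 RPKM, and Pdgfra, at 13.3 RPKM in the labelled knockout, was below its control level. The part of captured stroma in the member ratios was not tested. Without small RNA and unnamed gene models the background was 3.67% higher and 1.77% lower in luminal epithelium, and 0.486% and 0.558% in stroma, a choice made after the data were seen.

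**Figure D4:**
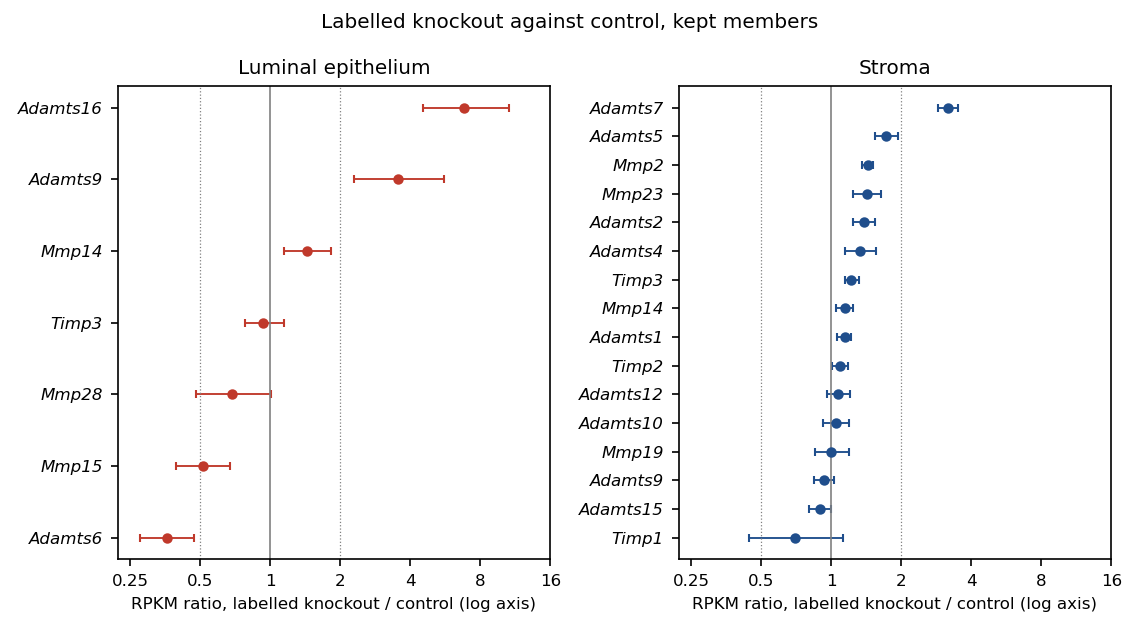
RPKM ratio of labelled knockout to control (log axis) for the 7 kept members in luminal epithelium and the 16 in stroma. Points are ratios of 1 library to 1 library, bars are 95% counting limits on estimated reads, and dotted lines mark 2-fold differences. Adamts16 at 6.83 and Adamts7 at 3.17 lie farthest to the right, and Adamts6 at 0.358 farthest to the left.

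In the authors' deposited table no member was marked significant in either compartment, among 13 members they tested in luminal epithelium and 23 in stroma. That table marked 0.841% of genes tested in luminal epithelium and 0.0409% in stroma. Its p-value was under 0.05 for 1 member in each compartment, Adamts16 in luminal epithelium and Mmp9 in stroma, the second at 0.0177 for a gene that the table lists as not tested.

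The third comparison set luminal epithelium against stroma in each genotype. Matrix proteases were mostly lower in the epithelium, among them Mmp2, Timp2, Adamts1, Mmp23, Adamts7, Adamts10, Adamts15 and Mmp19 in both genotypes. Among kept members, Mmp14, Timp3 and, in the labelled knockout, Adamts9 came closest to stromal levels by RPKM ratio. With levels scaled to the upper quartile, Timp3 passed the 2-fold mark in the labelled knockout (-1.3) and Mmp14 in the control (-1.06). The tables were normalized separately, so these levels are set across them. In the labelled knockout 8 of 13 kept members were at least 2-fold lower, 61.5% against 10.7% of kept genes, and 1 (Adamts16) was higher, 7.69% against 20.7%. In the control 10 of 15 were lower, 66.7% against 12.1%, the same 8 with Adamts2 and Adamts9, and 2 (Adamts6 and Mmp28) were higher, 13.3% against 19.6%. Each of these lower members was under 1 RPKM in luminal epithelium and was kept through its stroma level, and the higher ones through their luminal epithelium level, so they had to differ and the shares are a description only. The medians were -1.64 in the labelled knockout and -1.58 in the control, beside 0.32 and 0.29 for all kept genes. With levels scaled to the upper quartile, 13.5% of kept genes were higher and 15.0% lower in the labelled knockout, and 12.1% and 17.1% in the control. Each luminal epithelium library also enters the first comparison, and each stroma library the second.

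Single genes ranged widely. Mmp2 was 53.0-fold lower in luminal epithelium than in stroma of the labelled knockout (limits 44.0 and 65.1) and 21.5-fold lower in the controls (limits 12.6 and 40.5). Timp2 was 230-fold lower in the labelled knockout (limits 126 and 485) and 43.8-fold lower in the controls (limits 16.8 and 239). Adamts1 was 68.1-fold lower in the labelled knockout (limits 50.5 and 95.4), and at least 58.6-fold lower in the controls, where it was listed at 0 in luminal epithelium and 3 reads set the bound. Timp3 was 2.06-fold lower in the labelled knockout (limits 1.93 and 2.20) and 1.57-fold lower in the controls (limits 1.31 and 1.92), and Mmp14 was 1.29-fold lower in the labelled knockout and 1.62-fold lower in the controls. Luminal epithelium levels as a share of stroma were 1.89% for Mmp2, 1.47% for Adamts1, 1.37% for Adamts7 and 0.436% for Timp2 in the labelled knockout, beside 1.61% for the stromal marker sum. Single stromal markers there ranged from 0.146% to 36.0%, with a median of 1.19%. The shares were 77.3% for Mmp14, 89.9% for Adamts9 and 48.5% for Timp3.

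**Figure D5:**
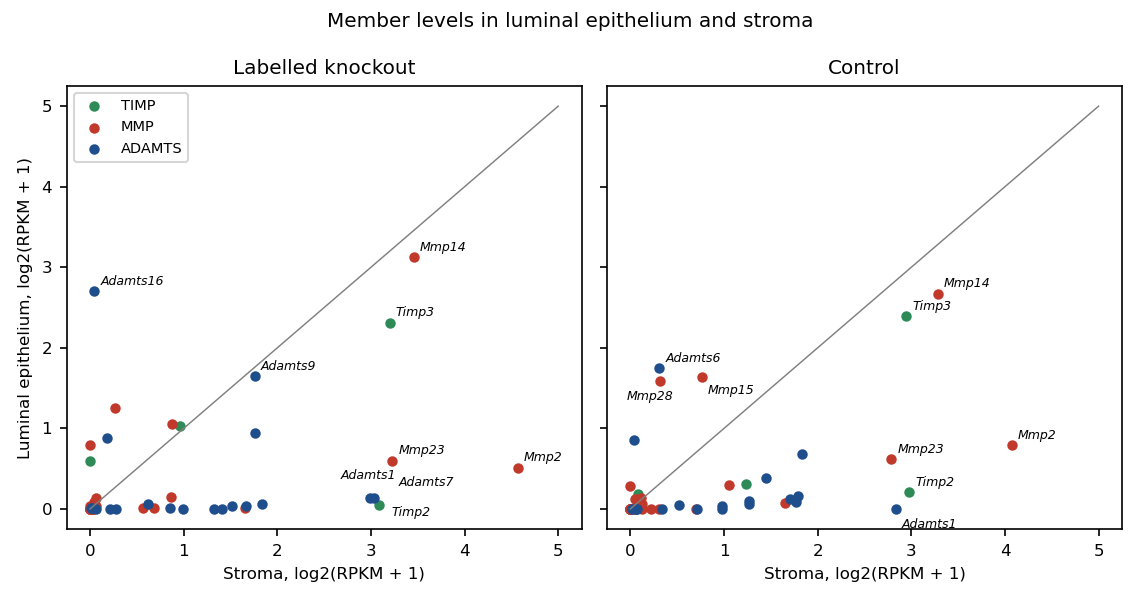
Level of each of the 46 members in luminal epithelium against stroma, as log2(RPKM + 1), in the labelled knockout and in the control. The line marks equal levels. Mmp2, Mmp23, Timp2 and Adamts1 lie far below the line in both panels, Mmp14 and Timp3 lie near it, and Adamts16 in the labelled knockout and Adamts6 and Mmp28 in the control lie above it.

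Other genes of extracellular proteolysis were followed as a list of 66, all in the tables. The 5 with the highest mean over the libraries were the lysosomal protease gene Ctsd, the membrane peptidase gene Mme (neprilysin), the lysosomal protease gene Ctsb, the collagen chaperone gene Serpinh1 and Plat, which encodes tissue plasminogen activator. Ctsd was at 2310 RPKM in luminal epithelium of the labelled knockout and 1610 RPKM in its control, against 17.0 and 17.7 RPKM in stroma of the labelled knockout and control. Ctsb was at 71.8 and 47.2 RPKM in luminal epithelium of the labelled knockout and control, and Plat at 49.6 and 40.9 RPKM. Serpinh1 ran the other way, at 3.18 and 3.42 RPKM in luminal epithelium and 61.6 and 42.8 RPKM in stroma, labelled knockout before control.

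In luminal epithelium 27 of the 66 were kept, 1 of them past 2-fold upward and 2 downward, 3.70% and 7.41% against 5.03% and 1.99% of all kept genes, with a median log2 difference of 0.22 against 0.10. Ctsl, a lysosomal protease that can also act outside the cell, was at 14.7 RPKM in the labelled knockout and 2.89 RPKM in the control. Ctss, cathepsin S of antigen-presenting cells, was at 0.153 RPKM in the labelled knockout and 3.97 RPKM in the control, and Mme was at 48.6 RPKM in the labelled knockout and 100 RPKM in the control. The Ctss level was 0.0386 times that of the control (limits 0.0201 and 0.0761). In luminal epithelium the authors' deposited table marked Ctss significant, with a q-value of 0.0034. In stroma 33 were kept, 1 past 2-fold upward and 1 downward, 3.03% each against 1.45% and 1.59% of all kept genes, with a median of 0.06 against 0.07. A2m, which encodes alpha-2-macroglobulin, a trap for proteases of all classes, was at 3.92 RPKM in stroma of the labelled knockout and 0.245 RPKM in its control, 16 times as much (limits 12 and 22.3). The authors' deposited table marked A2m significant in stroma as well, with a q-value of 0.0115. Ctss was lower there too, at 3.35 RPKM in the labelled knockout and 9.86 RPKM in the control, with a q-value of 0.644. Leukocyte marker sums were lower in the labelled knockout too (11.7 against 21.4 RPKM in luminal epithelium and 56.3 against 126 RPKM in stroma). In luminal epithelium of the labelled knockout only 1 of the 11 markers reached 1 RPKM, so that sum says little of the others. There Ptprc was at 0.0379 RPKM against 0.329 RPKM in the control, and Csf1r at 0.0555 against 0.529 RPKM. The part of leukocytes in the Ctss values was not tested.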

How the data were processed

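RNA was measured in 4 libraries, 1 for each genotype and compartment. Per the labels' protocols, total RNA of microdissected cells was extracted with the PicoPure kit and made into stranded, ribosomal RNA-depleted libraries. Per the file headers, the authors deposited RPKM for 23235 genes in 1 table per compartment, beside columns for a log2 ratio, a p-value and a q-value of the authors' own comparison. CASAVA 1.8.2, TopHat2 2.0.5, Cufflinks 2.0.2 and build mm9 are named in the submitters' processing notes. Filters, and whether strand was used to count, are not given in the sources used here, so members that overlap another gene are uncertain.

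Differences were computed as log2 of the ratio of RPKM + 1, for genes whose mean over the pair was 1 RPKM or more, and called at 2-fold. This scale understates the change of low genes. Depth was estimated from the steps of low RPKM values with GENCODE vM21 transcript lengths less 200 bp, which were at hand for 45 members. Between 59.9% and 64.2% of low values lay within 0.2 of a whole read, with the step fitted to the same values. Evenly spread values would reach a good part of that share too, so read numbers and the limits built on them are approximate. The 95% limits are exact binomial (Clopper-Pearson) limits on estimated reads and cover counting error only, since amplified reads are not independent molecules. The steps were tested on simulated data. Locus starts were raised by 1, since 7152 of 20601 loci had the length of the RefSeq gene when counted from 0 and 452 when counted from 1. Alternatives changed the pseudocount, the minimum, the scaling and the call rule. Every member is accounted for, and those that reached 1 RPKM are given with all 4 values, together with Mmp7, Mmp9, Mmp10 and Mmp13. Of the proteolysis list, genes past 2-fold and the 5 highest are named. Members and lists were chosen with earlier results of these data known. The work used matplotlib 3.10.9, scipy 1.17.1, numpy 2.4.6, pandas 2.3.3 and Python 3.11.15.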

Additional observations from a re-analysis of the deposited data

How the results depend on the processing

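With a pseudocount of 0.1 RPKM, 2 members were at least 2-fold higher and 1 lower in luminal epithelium of the labelled knockout against control (Adamts9 and Adamts6 added), against 1 and 0 with a pseudocount of 1. Of all kept genes 8.27% were then higher and 3.61% lower, against 5.03% and 1.99%. Counting limits with a ratio of at least 2 gave the same 2 higher and 1 lower, beside 6.98% and 3.62% of genes with a length. Rescaling to the sum without the 50 most abundant genes gave 1 lower (Adamts6, at -1.01), where 3.01% of all kept genes were lower. It moved the median of all genes by -0.19, leaving 57.2% in place of 71.6% of called genes higher. A minimum mean of 5 RPKM left 1 member in luminal epithelium (Mmp14), so that 0 were higher and the median turned to 0.45, and 0 were higher in stroma. In the same way it left 0 higher and 1 lower in luminal epithelium against stroma in each genotype. Upper-quartile scaling left 1 member higher in luminal epithelium against stroma of the controls and added Mmp14 (-1.06) to the lower ones. In the labelled knockout both rescalings gave 11 lower in place of 8, adding Adamts2, Adamts4 and Timp3. Of all kept genes 14.3% and 15.0% were lower there, against 10.7% unscaled. Timp3 was at -1.24 without the 50 most abundant genes and at -1.3 by upper quartile. Upper-quartile scaling moved the median of all genes between compartments by -0.38 in both genotypes. Of called genes 47.4% were then higher in place of 66.0% in the labelled knockout, and 41.5% in place of 61.8% in the control. Adamts16 stayed at least 2-fold higher in luminal epithelium and Adamts7 in stroma under each setting that kept them. No paired analysis was possible because each group holds 1 library, which leaves no pairs within a compartment, and a fit that pairs compartments by mouse would test across tables normalized separately. The depth of the luminal epithelium control limits every low member there.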

Other observations

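A second protease system on the list, the membrane-anchored serine proteases and their Kunitz-type inhibitors, had the opposite compartment pattern to most matrix metalloproteinases. These genes were chosen after their values were seen. St14 (matriptase) was at 10.6 RPKM in luminal epithelium of the labelled knockout and 10.7 RPKM in its control, against 0.0946 and 0.0845 RPKM in the matching stroma. Prss8 (prostasin) was at 11.6 and 10.9 RPKM in luminal epithelium of the labelled knockout and control, and at 0.0402 and 0.0444 RPKM in stroma. Their inhibitor genes Spint1 and Spint2 were at 9.58 and 43.3 RPKM in luminal epithelium of the labelled knockout, 9.06 and 31.9 RPKM in its control, 0.0451 and 0.582 RPKM in stroma of the labelled knockout, and 0.0659 and 0.874 RPKM in its control. Tmprss2 was at 14.4 and 9.16 RPKM in luminal epithelium of the labelled knockout and control.

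The plasminogen system was lopsided in these libraries. Plat was at 49.6 RPKM in luminal epithelium of the labelled knockout and 40.9 RPKM in its control, against 3.44 and 2.72 RPKM in the matching stroma. Plau, the urokinase gene, reached at most 0.795 RPKM in any library, and Plg, the plasminogen gene, was listed at 0 in all 4. Serpine2, an inhibitor of these proteases, was at 4.89 RPKM in luminal epithelium of the labelled knockout and 3.47 RPKM in its control, and at 2.95 and 1.52 RPKM in the matching stroma. These genes too were chosen after their values were seen, apart from Plat.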
